A study of Ovis aries with 16 samples.

Results

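The abundant miRNAs oar-miR-22-3p and oar-miR-191 of the ovine testis were followed across 16 males. They are 2 of the 271 miRNAs listed in the deposited values, and they were chosen by their measured level, since both lay among the 10 miRNAs with the highest mean level in each diet. Testis tissue came from mature Merino males, 8 well-fed and 8 underfed, with 1 small RNA library per male after 65 days of feeding. The well-fed males were fed for a gain of 10% in body mass, and the underfed males for a change of -10%. Diet was the only difference between groups that the labels gave. The RNA came from tissue pieces of the right testis with their cell types mixed, so fewer cells of a type and less RNA per cell cannot be told apart in these values.

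A miRNA guides an Argonaute protein to messenger RNAs that pair with its first bases, its seed, and so lowers their stability or translation. miR-22 is processed from a long non-coding host transcript and is expressed in many tissues. miR-191 is expressed in most tissues and is widely used as a reference miRNA in qPCR.

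In the RefSeq gene table for the sheep assembly ARS-UI_Ramb_v3.0, each miRNA had 1 locus. MIR22 lay inside the long non-coding RNA gene LOC121820573, with TLCD2 and WDR81 as the nearest protein-coding genes on its sides. MIR191 lay between the protein-coding genes NDUFAF3 and DALRD3, and no gene in that table enclosed it. No other miRNA gene of the table started within 10 kb of either locus.

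The deposited values are counts per 1000000 reads (CPM), in which miRNAs were divided by the total of all miRNA reads of the library, so that CPM and percent shares are the same quantity on 2 scales. Recovered miRNA reads per library ranged from 17163 to 503916 in well-fed males and from 27797 to 1058985 in underfed males. Well-fed replicate 5 and underfed replicates 6 and 8 held fewer than 100000 miRNA reads. Underfed replicate 1 stood apart from the other underfed libraries. On the log2 scale its miRNA to piRNA read ratio was -0.95, within the well-fed range of -1.49 to -0.14, whereas the other 7 underfed males had a median of 0.72. Results that rest on this male are given with and without it.

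Counting error on the members was small beside the differences between males. The number of reads behind 1 value ranged from 561 to 23677 for oar-miR-22-3p and from 582 to 25567 for oar-miR-191. In the shallowest library, well-fed replicate 5, the share of oar-miR-22-3p was 3.27% of the miRNA reads, with a 95% Wilson interval of 3.01% to 3.55%. In the deepest, underfed replicate 3, it was 1.60%, with an interval of 1.58% to 1.63%. These intervals cover counting error only, since PCR reads are not independent molecules.

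The 2 miRNAs were neighbours in the order of abundance. Over all 16 males, oar-miR-22-3p was 7th with a mean of 31631 CPM and oar-miR-191 was 8th with 30478 CPM. Each was the more abundant of the pair in 8 of 16 males. The next above was oar-miR-148a, at 31894 CPM, and oar-miR-22-3p exceeded it in 6 of 16 males. The next below was candidate-miR-121, a predicted miRNA with miR-92a as homologue, at 25710 CPM. oar-miR-191 exceeded it in 13 of 16 males.

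The order of the pair differed between the diet means. In well-fed males oar-miR-22-3p was 6th and oar-miR-191 was 7th, and in underfed males oar-miR-191 was 6th and oar-miR-22-3p was 7th. The threshold that chose them lay between oar-let-7f at 22414 CPM and oar-miR-16b at 17421 CPM in well-fed males. In underfed males it lay between candidate-miR-31 at 19776 CPM and candidate-miR-140 at 16685 CPM. Within single libraries, oar-miR-22-3p ranked between 5th and 10th. oar-miR-191 ranked between 4th and 11th, and the 11th place was in underfed replicate 4. These ranks are a description, because the level was what chose the members.

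**Figure D1:**
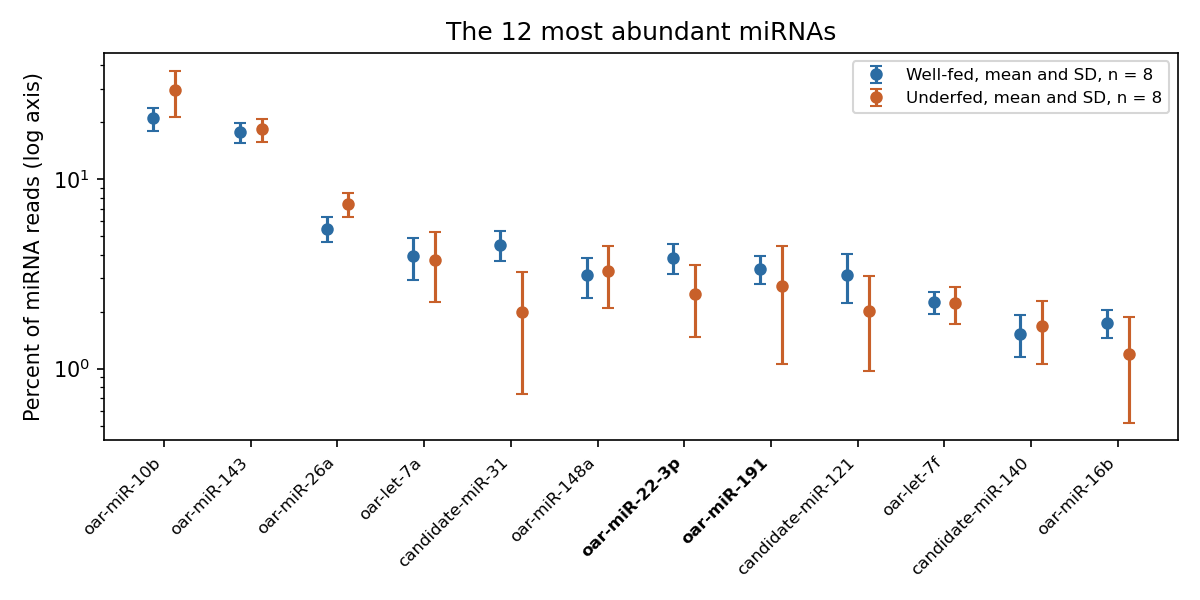
The 12 most abundant miRNAs in order of their mean over 16 males, as percent of miRNA reads on a log axis, with mean and SD for 8 well-fed and 8 underfed males. The 2 members, in bold, sit among miRNAs of similar level, between oar-miR-148a and candidate-miR-121.

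oar-miR-22-3p took a smaller share of the miRNA reads in underfed males. In well-fed males its level ranged from 26790 to 45560 CPM, with a median of 40085. In underfed males it ranged from 15618 to 43833 CPM, with a median of 22908. The groups overlapped, but 4 underfed males lay below the lowest well-fed male and 3 well-fed males lay above the highest underfed male. The highest underfed value belonged to replicate 8, 1 of the shallow libraries.

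The mean share of oar-miR-22-3p in well-fed males was 3.84% ± 0.69 (SD, n = 8), against 2.49% ± 1.03 (SD, n = 8) for the underfed. The difference was -1.35 percentage points (exact permutation test over all arrangements of the males, two-sided, P = 0.0112). It was -1.39 percentage points without underfed replicate 1 (exact permutation, P = 0.0149). In the 13 libraries above 100000 miRNA reads it was -1.82 percentage points (exact permutation, P = 0.00291). A share falls when other miRNAs rise, so it was also computed among the miRNA reads other than oar-miR-10b, the most abundant miRNA, which took 20.9% of the reads of well-fed males and 29.4% of those of underfed males. The means were then 4.84% in well-fed and 3.46% in underfed males, a difference of -1.38 percentage points (exact permutation, P = 0.0205). These shares have a smaller denominator, so their percentage points are not on the same scale as those of all miRNA reads.

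oar-miR-191 did not show a difference in share that exceeded the spread between males. In well-fed males its level ranged from 24151 to 40539 CPM, with a median of 33205. In underfed males it ranged from 13295 to 64703 CPM, with a median of 23476. Underfed replicate 1 held the highest value of all 16 males, while 4 underfed males lay below the lowest well-fed male.

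For oar-miR-191 the mean share of well-fed males was 3.36% ± 0.57 (SD, n = 8), against 2.74% ± 1.68 (SD, n = 8) for the underfed. The difference was -0.62 percentage points (exact permutation, P = 0.366). Without underfed replicate 1 the underfed mean was 2.21% ± 0.81 (SD, n = 7) and the difference was -1.15 percentage points (exact permutation, P = 0.00917). The result for oar-miR-191 thus rested on whether that male was included. In the 13 deeper libraries, which include that male, the difference was -0.34 percentage points (exact permutation, P = 0.696).

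**Figure D2:**
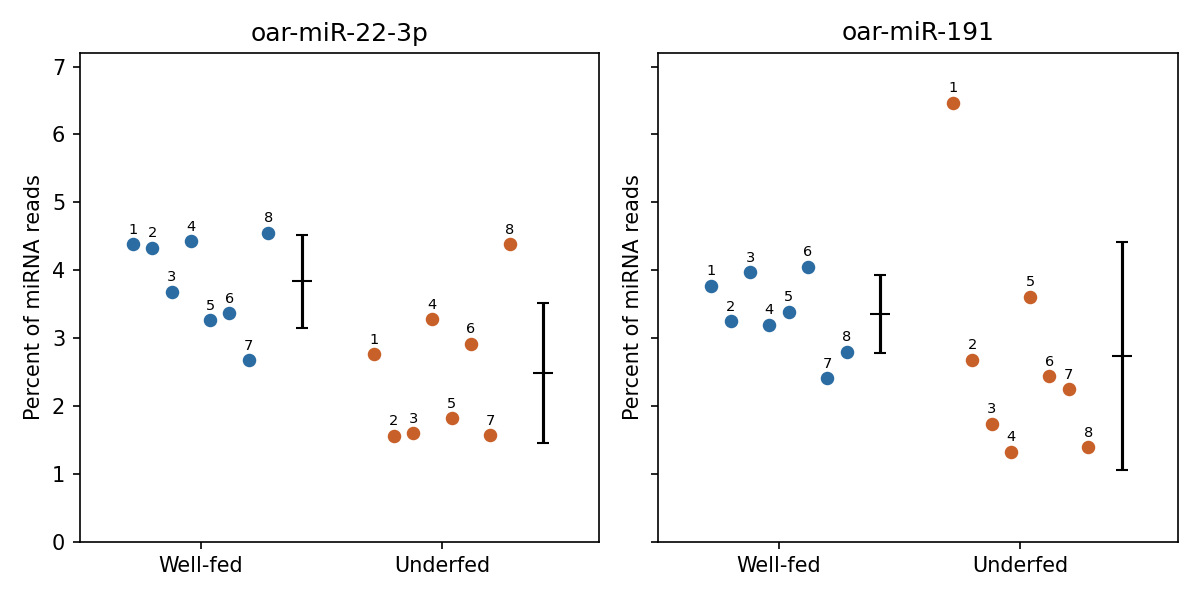
Share of miRNA reads taken by each member in every male, in percent, with replicate numbers beside the points and mean and SD as bars. For oar-miR-22-3p, 4 of 8 underfed males lie below the lowest well-fed male, and underfed replicate 1 is the highest of all males for oar-miR-191, at 6.47%.

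The same males were then compared in a limma fit of log2(CPM + 1) across the 244 miRNAs that passed the filter on low values, with TMM factors, which scale libraries so that most miRNAs do not change. In that fit 15 miRNAs passed a Benjamini-Hochberg FDR of 0.05 (6.15% of those tested), and 9 of them were higher in underfed males (3.69%). The split turned with the scaling, with 1 higher and 38 lower with no factor between libraries, and 85 higher and 0 lower when miRNAs and piRNAs were normalized together. With the added requirement of a ratio of mean CPM under 0.67 or above 1.5 (FC), 8 were called (3.28%). Neither of the 2 members was called.

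For oar-miR-22-3p the log2 fold change, underfed minus well-fed, was -0.23 (SE 0.19, 95% interval -0.63 to 0.17, limma FDR = 0.464). The FC from mean CPM was 0.648. For oar-miR-191 the log2 fold change was 0.01 (SE 0.23, 95% interval -0.47 to 0.50, limma FDR = 0.971), and the FC was 0.817. Without underfed replicate 1 these log2 fold changes were -0.18 (limma FDR = 0.513) and -0.11 (limma FDR = 0.748). These intervals with all males include changes of either sign for both members. In the 13 deeper libraries the log2 fold change of oar-miR-22-3p was -0.45 (95% interval -0.85 to -0.05, limma FDR = 0.0957), and that of oar-miR-191 was 0.16 (95% interval -0.33 to 0.65, limma FDR = 0.632). With TMM and weights for the quality of each library, the log2 fold change of oar-miR-22-3p was -0.48 (SE 0.15, limma FDR = 0.0125), a call that the unweighted fit did not make. The weighted fit called 98 of all 244 tested miRNAs, 49 of them lower in underfed males.

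The scaling decided the direction. TMM factors ranged from 1.08 to 1.39 in well-fed males and from 0.70 to 1.26 in underfed males, and the factor of 1.26 belonged to underfed replicate 1. The median log2 fold change over all tested miRNAs was -0.08 with TMM, -0.51 with no factor between libraries and 0.81 when miRNAs and piRNAs were normalized together. With no factor, the log2 fold change of oar-miR-22-3p was -0.71 (SE 0.21, limma FDR = 0.0279) and that of oar-miR-191 was -0.46 (SE 0.25, limma FDR = 0.211). With joint normalization they were 0.72 (SE 0.29, limma FDR = 0.0574) and 0.97 (SE 0.29, limma FDR = 0.0126).

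Relative to the median of all tested miRNAs the members moved less between scalings, which follows from the arithmetic. A factor between libraries shifts every miRNA of a library alike, and subtracting the median takes most of that shift out. For oar-miR-22-3p the log2 fold change minus that median was -0.15 with TMM, -0.20 with no factor and -0.09 with joint normalization. For oar-miR-191 it was 0.09 with TMM, 0.05 with no factor and 0.15 with joint normalization. Fits that change the weights or the males can differ more. With sample weights the difference from the median was -0.51 for oar-miR-22-3p and 0.06 for oar-miR-191. In the 13 deeper libraries it was -0.43 and 0.18. These differences from the median carry no test.

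**Figure D3:**
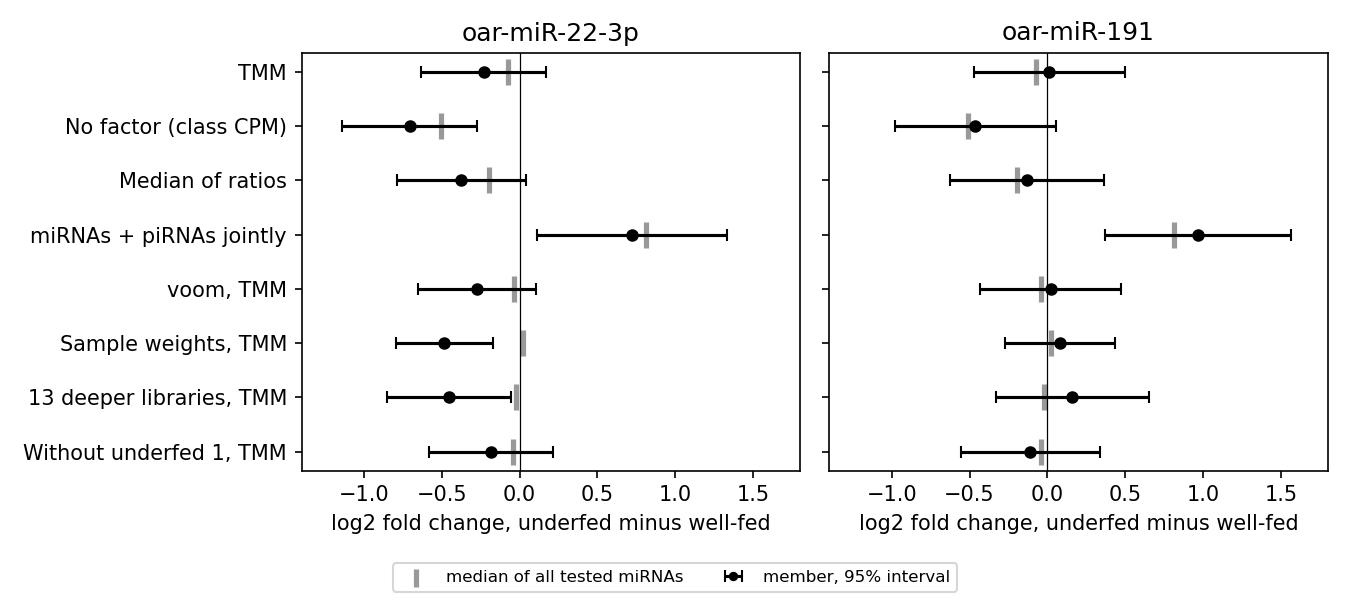
The log2 fold change of each member, underfed minus well-fed, with its 95% interval under 8 ways of scaling or fitting, and the median of all tested miRNAs under the same fit as a grey bar. Both members are negative with no factor between libraries and positive with joint normalization, and the grey bar moves with them.

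Counted against miRNA and piRNA reads together, neither member had a lower mean in underfed males when all libraries were used. oar-miR-22-3p held 13772 ± 1917 (SD, n = 8) of every 1000000 reads of both classes in well-fed males, and 15140 ± 6673 (SD, n = 8) in the underfed. The difference of 0.14 percentage points was within the spread between males (exact permutation, P = 0.577). The median of oar-miR-22-3p was lower in underfed males, at 11749 against 13311. Of the 8 underfed males, 3 lay below the lowest well-fed male and 3 above the highest. In the libraries above 100000 miRNA reads the mean of oar-miR-22-3p was also lower in underfed males, at 12859 (n = 6) against 13863 (n = 7). That difference was not tested. oar-miR-191 held 12176 ± 2205 (SD, n = 8) and 15326 ± 5113 (SD, n = 8) of every 1000000, a difference of 0.32 percentage points (exact permutation, P = 0.134). The miRNA class itself was larger against the piRNA class in underfed males, with a mean log2 ratio of 0.74 ± 0.82 (SD, n = 8) against -0.81 ± 0.39 (SD, n = 8).

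The ratio of the 2 members within a library needs no scaling between libraries. The log2 ratio of oar-miR-22-3p to oar-miR-191 ranged from -0.27 to 0.70 in well-fed males, with a median of 0.18. It ranged from -1.23 to 1.66 in underfed males, with a median of -0.32. The underfed values lay on both sides of the well-fed range, 4 of 8 below it and 2 of 8 above it.

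The means were 0.19 ± 0.33 (SD, n = 8) and -0.05 ± 1.06 (SD, n = 8), and the difference of -0.24 did not exceed the spread between males (exact permutation, P = 0.543). In the 13 deeper libraries the difference was -0.61 (exact permutation, P = 0.125). Underfed replicate 8 held 3.15 reads of oar-miR-22-3p for each read of oar-miR-191, and underfed replicate 1 held 0.427. oar-miR-22-3p was the more abundant in 5 of 8 well-fed and 3 of 8 underfed males.

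**Figure D4:**
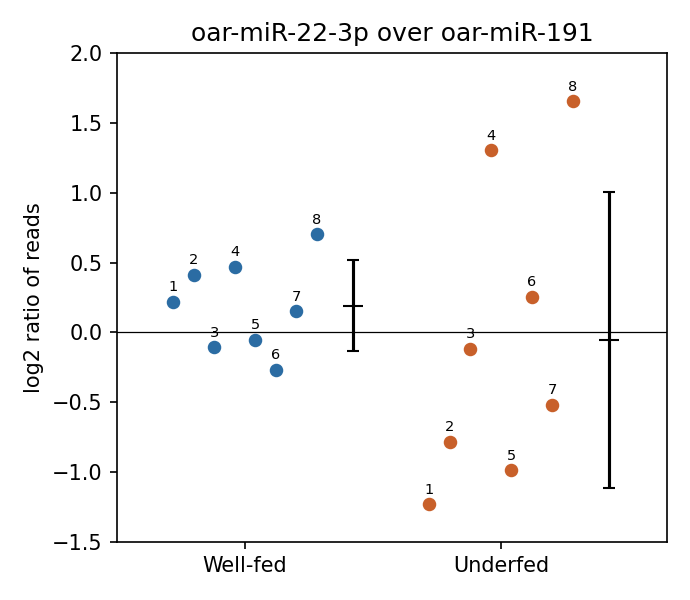
The log2 ratio of oar-miR-22-3p to oar-miR-191 reads in every male, with replicate numbers beside the points and mean and SD as bars. Underfed males spread from -1.23 to 1.66, on both sides of the well-fed range.

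Across males of 1 diet no relation passed adjustment. The 10 relations were computed on CPM, again on TMM-scaled CPM and again in the deeper libraries, and P was adjusted over the 10 within each of these. Between log2 levels of the 2 members, Pearson's r was 0.24 in well-fed males (exact permutation P = 0.56, adjusted P = 0.80, n = 8), and Spearman's rho was -0.14 (exact permutation P = 0.752, adjusted P = 0.752). In underfed males r was -0.26 (exact permutation P = 0.546, adjusted P = 0.80, n = 8) and rho was -0.43 (exact permutation P = 0.299, adjusted P = 0.72). On TMM-scaled levels r was -0.71 in underfed males (exact permutation P = 0.0462, adjusted P = 0.457, n = 8), and in the 6 deeper underfed libraries it was 0.05 (exact permutation P = 0.91, adjusted P = 0.91). Without the 2 males farthest from the median of oar-miR-191, r became -0.45 for the well-fed and -0.53 for the underfed.

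On CPM over 8 males, the largest r in size was -0.77. It lay between oar-miR-191 and the log2 ratio of miRNA to piRNA reads in underfed males (exact permutation P = 0.0274, adjusted P = 0.155, n = 8), with rho -0.64 (exact permutation P = 0.0962, adjusted P = 0.321). It was -0.31 without the 2 farthest males. In the 6 deeper underfed libraries it was -0.90 (exact permutation P = 0.0181, adjusted P = 0.153), and -0.65 there without the 2 farthest. oar-miR-22-3p and that ratio gave r = -0.73 in well-fed males (exact permutation P = 0.0364, adjusted P = 0.155, n = 8), with rho -0.64 (exact permutation P = 0.0962, adjusted P = 0.321), and r was -0.18 without the 2 farthest males. oar-miR-22-3p and log2 depth gave r = -0.73 in underfed males (exact permutation P = 0.0466, adjusted P = 0.155, n = 8), with rho -0.71 (exact permutation P = 0.0576, adjusted P = 0.321), and r was -0.53 without the 2 farthest males. In the other 5 relations with depth or with the class ratio, r on CPM over 8 males lay between -0.31 and 0.13. Of these, depth and oar-miR-191 in underfed males had r = -0.11 over 8 males. Here the 2 farthest males were the 2 shallow libraries, and without them r in the 6 deeper libraries was -0.84 (exact permutation P = 0.0306, adjusted P = 0.153).

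The spread of the members among males was set beside that of 58 tested miRNAs with a mean of at least 1000 CPM. The SD of log2 CPM within diets was 0.45 for oar-miR-22-3p and 0.56 for oar-miR-191, and the median over the 58 miRNAs was 0.41. In order of increasing SD, oar-miR-22-3p was 35th and oar-miR-191 was 47th of 58. In well-fed males alone the SD was 0.27 and 0.26, and in underfed males alone it was 0.57 and 0.75. The medians over the 58 miRNAs were 0.29 and 0.49 for the same diets. Without underfed replicate 1 the underfed SD of oar-miR-191 was 0.53. In the 13 deeper libraries oar-miR-22-3p was 24th and oar-miR-191 was 54th of 58.

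Among 10 miRNAs in use as qPCR references, oar-miR-191 included, 1 passed the FDR and rose in underfed males, and 0 passed it and fell. The 1 was oar-miR-26b, with a log2 fold change of 0.76 (limma FDR = 0.0489), which was 0.29 with no factor between libraries (limma FDR = 0.274) and 0.72 in the 13 deeper libraries (limma FDR = 0.0712). The median log2 fold change of the list was -0.20, beside -0.08 over all tested miRNAs. With no factor the tally of the list turned to 0 that rose and 6 that fell, and with joint normalization to 6 that rose and 0 that fell. Over all 244 tested miRNAs, 9 rose and 6 fell with TMM, 1 and 38 with no factor, and 85 and 0 with joint normalization. Without underfed replicate 1, 2 of the list rose and 2 fell with TMM, beside 29 and 16 of all 239 tested. The other most abundant miRNAs of the list did not pass the test with TMM over all 16 males. The log2 fold change was 0.39 for oar-let-7a, -0.21 for candidate-miR-121 and -0.20 for oar-miR-16b. With no factor candidate-miR-121, at -0.69 (limma FDR = 0.043), and oar-miR-16b, at -0.67 (limma FDR = 0.0458), passed and fell.

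Of the 10 most abundant miRNAs, 2 passed the FDR and rose, 1 passed and fell, and the median log2 fold change was 0.41. With no factor 1 rose and 3 fell, oar-miR-22-3p among them, and with joint normalization 8 rose and 0 fell. Over all 244 tested miRNAs, 9 rose and 6 fell with TMM, 1 and 38 with no factor, and 85 and 0 with joint normalization. Without underfed replicate 1, 5 of the 10 rose and 1 fell with TMM, beside 29 and 16 of all 239 tested. With TMM over all 16 males, the 2 that rose were oar-miR-10b, with 0.92 (limma FDR = 0.0446), and oar-miR-26a, with 0.91 (SE 0.18, limma FDR = 0.00547). With no factor, the change was 0.44 for each, and passed for oar-miR-26a (limma FDR = 0.0407) but not for oar-miR-10b (limma FDR = 0.117).

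Markers of germ cells moved with the diet. Their 3 listed miRNAs, homologues of miR-34c-5p, miR-34b-5p and miR-449a, are known from meiotic and later germ cells. Of these, 2 of 3 passed the FDR and fell with TMM, beside 6 of all 244 tested miRNAs. candidate-miR-31, the homologue of miR-34c-5p, had a log2 fold change of -0.90 (limma FDR = 0.0256). candidate-miR-161, the homologue of miR-449a, had -0.78 (limma FDR = 0.0256). candidate-miR-30, the homologue of miR-34b-5p, had -0.80 and did not pass (limma FDR = 0.0931). It was -1.27 with no factor (limma FDR = 0.0095) and -1.08 in the 13 deeper libraries with TMM (limma FDR = 0.0067). In both of these fits 3 of 3 passed and fell, beside 38 of all 244 and 21 of all 247 tested miRNAs. With joint normalization the log2 fold changes of the 3, in the order given, were 0.05, 0.18 and 0.15, and none passed. The median over all tested miRNAs was then 0.81.

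The summed germ cell markers ranged from 47497 to 71079 CPM among the well-fed and from 10978 to 58155 CPM among the underfed. None of the 3 was at 0 in a library. The underfed males with the highest sums were replicate 8, at 58155 CPM, and replicate 1, at 44629 CPM. Replicate 8 also held the most oar-miR-22-3p of the underfed males, 43833 CPM. Replicate 2 held the lowest germ cell sum and the least oar-miR-22-3p, 15618 CPM. Other males departed from that order, since replicates 4 and 6, with sums of 21570 and 21441 CPM, held 32801 and 29176 CPM of oar-miR-22-3p, more than the 27605 CPM of replicate 1. For oar-miR-191, replicate 8 was among the lowest, at 13912 CPM, and replicate 1 the highest. The part of germ cell content in the levels of the 2 members was not tested.

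**Figure D5:**
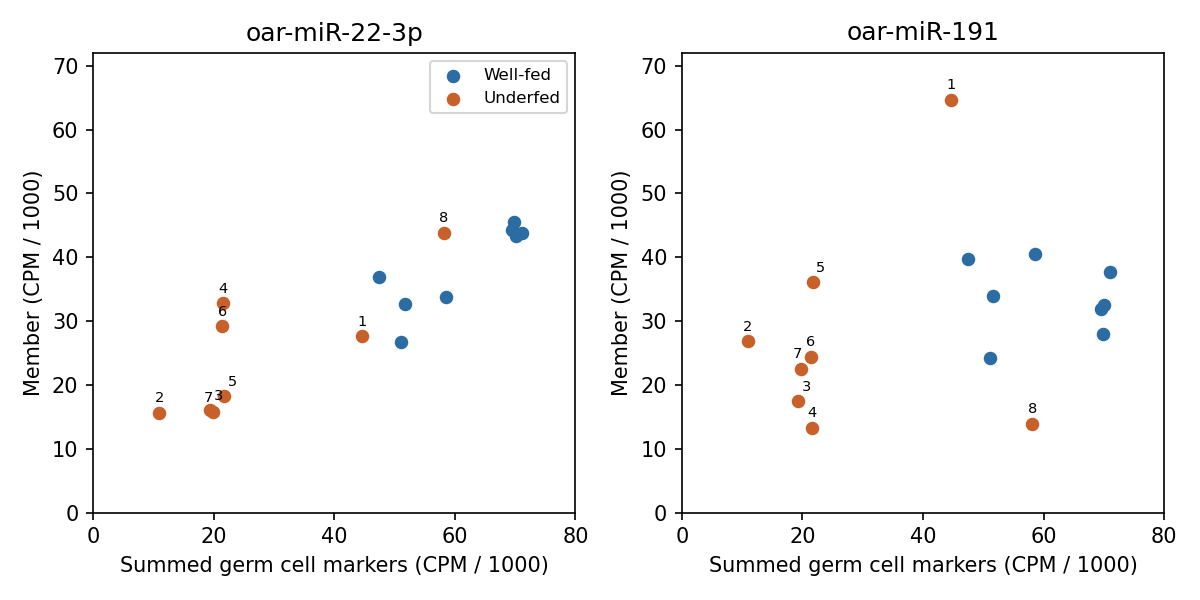
CPM of each member against the summed CPM of 3 germ cell markers, both divided by 1000, 1 point per male, with replicate numbers beside the underfed males. Underfed males reach down to 10978 CPM on the germ cell axis, and replicates 1 and 8 lie nearest the well-fed males on it.

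With TMM over all 16 males, the miRNAs of the other marker lists did not pass the test, 0 of 8 in either direction, beside 15 of all 244. In the 13 deeper libraries 2 of 8 passed and rose, 1 of smooth muscle and 1 of epithelium, beside 21 of all 247 tested. Without underfed replicate 1, 1 of 7 passed and rose, from smooth muscle, beside 29 of all 239 tested. With joint normalization 5 of the 8 rose, beside 85 of all 244. Summed smooth muscle markers (oar-miR-143 and the homologue of miR-145-5p) had medians of 180831 CPM for the well-fed and 188009 CPM for the underfed. The erythroid marker, candidate-miR-132, had 6318 and 3057 CPM. Summed leukocyte markers had 1300 and 1174 CPM, with neither miR-142, miR-155 nor miR-146a homologue at 0 in any library. The epithelial markers oar-miR-200a and oar-miR-200b summed to 24.4 and 34.8 CPM, and oar-miR-200b was at 0 in 5 libraries. The median log2 fold change was 0.57 for smooth muscle, -0.20 for erythroid, 0.25 for leukocyte and 1.03 for epithelial markers.

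Likeness to the members was ranked by Pearson's r of TMM-scaled log2 levels over 16 males after the diet means were removed, among the other 125 tested miRNAs with at least 100 CPM. Males share their library, depth and scaling factor in this measure, and it is a description. For oar-miR-22-3p the nearest were oar-miR-411a-5p (r = 0.84), candidate-miR-166, the homologue of miR-30e (r = 0.76), and candidate-miR-5, the homologue of miR-181c-5p (r = 0.75). For oar-miR-191 they were candidate-miR-40, the homologue of miR-502b (r = 0.80), candidate-miR-110, the homologue of miR-15b-5p (r = 0.73), and candidate-miR-132, the homologue of miR-486 (r = 0.66). In the 13 deeper libraries these 6 values of r lay between 0.59 and 0.82.

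The members were not near each other in this measure. Their r was -0.54, and -0.19 without the TMM factors. Of the 125 miRNAs, 101 were more like oar-miR-191 than oar-miR-22-3p was, and 111 were more like oar-miR-22-3p than oar-miR-191 was. With TMM, none of the 6 nearest miRNAs was called between diets by limma at the FDR, beside 6.15% of all 244 tested miRNAs. Their log2 fold changes ranged from -0.34 for candidate-miR-110 to 0.25 for candidate-miR-166. With no factor candidate-miR-110 was called, at -0.81 (limma FDR = 0.0445), beside 39 of all 244.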

How the data were processed

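Small RNA libraries from 16 testes were demultiplexed with CASAVA 1.8, and the submitters' notes name the build Oar_v3.1. The authors deposited 1 column of signal per library, holding CPM of miRNAs over all miRNA reads and, below them, CPM of piRNAs over all piRNA reads. They show no factor between libraries. Reads were recovered from the value of 1 read, and 93.7% to 99.0% of low miRNA values were whole within 0.1 reads, so these counts were used for depth, TMM weights and a voom alternative only. miRNAs with more than 5 CPM in at least 8 libraries were tested with limma 3.58.1 in R 4.3.3 on log2(CPM + 1), with Benjamini-Hochberg FDR and TMM factors from an own implementation (30% of log ratios and 5% of abundances trimmed), tested on simulated data. Shares and the log2 ratio were compared by exact permutation, two-sided, in Python 3.11.15 with scipy 1.17.1. Library labels gave the groups. The males are separate animals.

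Named miRNAs were the members, their neighbours in abundance, the 10th and 11th of each diet, the 3 most alike to each, and up to 4 of each list. oar-miR-26b was named after its values were seen. The members and lists were chosen with earlier results of these data known. Predicted miRNAs are called candidate-miR with the number of the deposited name, and homologues are those the study assigned. One further list is not reported here. Mature sequences are not used here, and coordinates are left out because the RefSeq table has another build.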

Additional observations from a re-analysis of the deposited data

Results flagged for a closer look

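Within each diet, the gap of the highest or lowest male to its neighbour was divided by the range of the 8 males and compared with Dixon's 95% critical value. In all, 15 of 62 groups passed it, and chance alone gives about 1 in 20. Of these, 4 are miRNAs named for their likeness to a member, whose values in the same males follow in part from that choice, which leaves 11 of 52 groups. The 2 that concern the members come first. oar-miR-191 in underfed replicate 1 was at 64703 CPM, and without it the difference in share was -1.15 percentage points. In reads per 1000000 miRNA and piRNA reads together, oar-miR-191 in well-fed replicate 8 was at 7328, the lowest well-fed male.

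Underfed replicate 1 was also far above the other underfed males for candidate-miR-110 (2558 CPM), candidate-miR-121 (45306 CPM), candidate-miR-40 (2501 CPM), oar-let-7a (74023 CPM) and oar-miR-16b (27839 CPM). Underfed replicate 8 stood out for candidate-miR-30 (3792 CPM) and oar-miR-411a-5p (3034 CPM). Well-fed replicate 7 stood out for candidate-miR-141 (680 CPM) and oar-miR-10b (278027 CPM). The remaining values were candidate-miR-141 in underfed replicate 5 (911 CPM), candidate-miR-5 in well-fed replicate 8 (1182 CPM), oar-miR-200a in well-fed replicate 5 (58.3 CPM) and oar-miR-26a in underfed replicate 6 (96719 CPM).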

How the results depend on the processing

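The difference in the share of oar-miR-22-3p was negative in 21 of 22 settings, and its exact permutation P was under 0.05 in those 21. Of the 22 settings, 16 left out 1 male in turn. All 21 negative ones used a share within the miRNA reads with no factor between libraries, so they do not vary the scaling. Against miRNA and piRNA reads together the difference for oar-miR-22-3p was 0.14 percentage points, and that of oar-miR-191 was 0.32. Leaving out 1 male in turn gave -1.62 to -1.22 percentage points for oar-miR-22-3p and -1.15 to -0.41 for oar-miR-191, where only the set without underfed replicate 1 passed. The log2 ratio of the members ranged from -0.49 to -0.08 with 1 male left out, was -0.61 in the 13 deeper libraries, and passed in none of these. The log2 fold change of oar-miR-22-3p was -0.71 with no factor and -0.48 with sample weights, both called by limma, and 0.72 with joint normalization, and from -0.38 to -0.18 with 1 male left out. That of oar-miR-191 was -0.46 with no factor, -0.13 with median-of-ratios factors and 0.97 with joint normalization, where it was called. It was -0.11 to 0.16 with 1 male left out. The cause was not tested.

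The number of miRNAs called was 39 with no factor, 85 with joint normalization, 98 with sample weights, 47 with voom, 31 with log2 class totals as a covariate, and 42 in the 13 deeper libraries. With the FC threshold it was 36, 60, 52, 26, 18 and 25 in that order. With 1 male left out the counts ran from 4 to 45 and from 0 to 22 with the FC threshold. The highest of both were without underfed replicate 1, and without underfed replicate 8 they were 27 and 14. The lowest were 4 and 0, without well-fed replicates 2 or 8. The count at the FDR was also lower by over 1.5 times without well-fed replicates 1, 5 and 6 and underfed replicates 2, 3, 4 and 5.

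Pearson's r changed sign for depth and oar-miR-22-3p in well-fed males (-0.59 in deeper libraries), depth and oar-miR-191 (0.0082 in well-fed and 0.081 in underfed males, TMM-scaled), the 2 members in underfed males (0.051 in deeper libraries), and the class ratio and oar-miR-22-3p in underfed males (0.10, TMM-scaled). Deviations of males with the same replicate number had a mean r of 0.05 over 8 pairs (-0.18 to 0.28), beside 0.0058 over 56 pairs with different numbers. These values carry no test, and the labels do not say whether the numbers pair males. With the replicate block the log2 fold changes were -0.23 (limma FDR = 0.369) and 0.01 (limma FDR = 0.965), and 15 miRNAs were called, 7 with the FC threshold. In the replicate block of shares, exact sign flips gave P = 0.0078 for oar-miR-22-3p, the smallest they can give, P = 0.313 for oar-miR-191 and P = 0.477 for the log2 ratio. It changed no call of the 2 members.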
